A study of Mus musculus with 12 samples.

Results

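The miR-132 and miR-212 hairpins lie side by side in the mouse genome and give 4 mature miRNAs: mmu-miR-132-3p and mmu-miR-132-5p from the first, and mmu-miR-212-3p and mmu-miR-212-5p from the second. They were taken by name from the count tables of the study, in which they are 4 of 1915 mature miRNA names, and each had a single row. The study sequenced small RNA from mouse striatum in 12 libraries, 3 in each of 4 groups. The groups were R6/2 mice given an adeno-associated virus (AAV) with a short hairpin RNA against TRAX (shTRAX), R6/2 mice given an AAV with a control shRNA, WT mice given the shTRAX AAV and WT mice given the control AAV. R6/2 mice, labelled B6CBA-Tg(HDexon1)62Gpb/3J, carry exon 1 of the human huntingtin gene as a transgene and are a model of Huntington's disease. R6/2 mice were mated with B6CBAFI/J females, the strain given for all samples; all mice received AAV on both sides of the striatum at 5 weeks, and all were sampled at 10.5 weeks of age. The sources used here do not give the shRNA promoter, the AAV serotype or the cells that took up the virus. Every group carried an AAV, so no value is from an uninjected striatum.

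A miRNA hairpin is cut to a short duplex, of which 1 arm (5p or 3p) usually stays in the silencing complex and pairs with mRNAs through its seed, bases 2 to 8 from its 5′ end. Transcription of the miR-132 and miR-212 locus is known to rise with neuronal activity and with neurotrophins through the transcription factor CREB, and miR-132 is known to promote growth of dendrites and spines. TRAX is the partner of translin in a complex with RNase activity that acts on small RNAs, so the study design also allows the arms of a hairpin to be compared under its knockdown.

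The 4 mature sequences are printed because their shared and separate seeds set how the members can be grouped, with the seed in capitals, from RefSeq on build GRCm38.p6 (chromosome 11, plus strand).
mmu-miR-132-3p: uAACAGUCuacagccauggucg
mmu-miR-212-3p: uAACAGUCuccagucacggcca
mmu-miR-132-5p: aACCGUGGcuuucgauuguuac
mmu-miR-212-5p: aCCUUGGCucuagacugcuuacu
The 3p arms share the seed AACAGUC, which no other mature mouse miRNA of the reference table has. They have the same base at 17 of 22 positions and the same first 9 bases. The 5p arms have separate seeds, ACCGUGG and CCUUGGC, neither of which is found in another mature miRNA of that table, and they match at 9 of 22 positions. Differences at the other positions distinguish the 3p arms from each other. How the authors' counting assigned reads with errors is not stated.

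The hairpins are printed to show where each arm lies, with the 5p and the 3p arm in capitals.
Mir212: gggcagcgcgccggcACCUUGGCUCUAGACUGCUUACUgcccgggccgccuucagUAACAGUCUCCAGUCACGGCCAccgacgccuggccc
Mir132: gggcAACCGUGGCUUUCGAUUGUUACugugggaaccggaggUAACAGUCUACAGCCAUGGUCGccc
Mir212 occupies chr11:75173388-75173478 and Mir132 chr11:75173682-75173747, with 203 bases between them on the same strand. Within them, miR-212-5p is at chr11:75173403-75173425, miR-212-3p at chr11:75173443-75173464, miR-132-5p at chr11:75173686-75173707 and miR-132-3p at chr11:75173723-75173744. In the GENCODE annotation of GRCm38 both hairpins lie in an intron (chr11:75172598-75173977) of 1700016P03Rik, a processed transcript on the plus strand (chr11:75172560-75177633).

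Deposited column totals were 23462111 to 28589763 reads per library, of which 13849777 to 16907910 remained once each mature name was counted from a single precursor row, and 1033 to 1106 miRNAs were detected. Raw counts were 17059 to 76788 for miR-132-3p, 4836 to 19422 for miR-132-5p, 666 to 3250 for miR-212-3p and 731 to 2870 for miR-212-5p. If each count is a separate molecule, counting error is at most 3.88% of any value, and it is larger if counts hold copies of a molecule. One library, R6/2 shTRAX replicate 3, stood apart from the rest. On the first principal component it scored 24.5, against -5.54 to 0.38 in the other 11 libraries. Its deviations from the mean also followed GC content, with a Spearman rho of 0.61 over 564 miRNAs, against -0.36 to 0.09 in the others. Fold changes of the members between groups that hold it are therefore also given without it. The labels do not say that replicates are separate animals, so p-values measure the spread between these samples only. Knockdown of TRAX was not checked, since small RNA libraries do not hold the mRNA of its gene, Tsnax. Levels are given as CPM, counts over the library total after TMM scaling (a trimmed-mean correction of that total). As a check of the tissue, 3 neuronal miRNAs were all abundant. miR-124-3p stood at 3006 to 5386 CPM in R6/2 libraries and 4959 to 7545 CPM in WT libraries. In the edgeR fits given further on, R6/2 minus WT for it was -0.45 (log2) under control AAV and -0.68 under shTRAX AAV. Only the latter was called lower, at an adjusted p under 0.05. miR-9-5p stood at 99469 to 151636 CPM in R6/2 and 108263 to 139049 CPM in WT libraries, and miR-128-3p at 65505 to 81093 CPM in R6/2 and 56461 to 79358 CPM in WT libraries, so these overlapped between the genotypes.

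All 4 members were lower in R6/2 than in WT striatum, and for each of them every R6/2 library lay below every WT library. The 4 members together made up 0.163% to 0.202% of the kept counts in R6/2 libraries and 0.411% to 0.718% in WT libraries. Over all tested miRNAs, 34 of 689 (4.93%) had all 6 R6/2 libraries below all 6 WT libraries. Mature miRNAs here are 22 or 23 bases long, so no length correction was applied.

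miR-132-3p was the most abundant member, 49th of 689 tested miRNAs by mean level. It stood at 1258, 1185 and 1654 CPM in R6/2 shTRAX libraries, 1534, 1280 and 1290 CPM in R6/2 control libraries, 4898, 3037 and 3475 CPM in WT shTRAX libraries, and 4356, 4939 and 4149 CPM in WT control libraries. The WT shTRAX libraries were the most spread, with replicate 1, at 4898 CPM, inside the range of the WT control libraries and the others below it. Group means were 1366 ± 252, 1368 ± 144, 3803 ± 973 and 4481 ± 409 CPM in the same order of groups (SD, n = 3 each).

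miR-212-3p, which shares the miR-132-3p seed, was much less abundant, 200th of 689. It stood at 53.4, 50.1 and 51.6 CPM in R6/2 shTRAX libraries, 65.1, 59.1 and 61.2 CPM in R6/2 control libraries, 184, 139 and 155 CPM in WT shTRAX libraries, and 187, 204 and 183 CPM in WT control libraries. It had the tightest groups of the 4 members, with means of 51.7 ± 1.66, 61.8 ± 3.03, 159 ± 22.8 and 192 ± 11.2 CPM (SD, n = 3 each). Here alone among the members the R6/2 shTRAX libraries all lay below the R6/2 control libraries.

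miR-132-5p, the other arm of the miR-132 hairpin, ranked 107th. It stood at 371, 340 and 422 CPM in R6/2 shTRAX libraries, 462, 353 and 376 CPM in R6/2 control libraries, 1239, 755 and 848 CPM in WT shTRAX libraries, and 928, 1168 and 992 CPM in WT control libraries. Within each genotype the shTRAX and control libraries overlapped. Means were 378 ± 41.3, 397 ± 57.3, 947 ± 257 and 1029 ± 124 CPM (SD, n = 3 each).

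miR-212-5p ranked 207th, close to its partner arm at 200th. It stood at 61.0, 55.6 and 87.6 CPM in R6/2 shTRAX libraries, 72.1, 53.4 and 59.1 CPM in R6/2 control libraries, 183, 102 and 116 CPM in WT shTRAX libraries, and 142, 169 and 150 CPM in WT control libraries. The genotypes came closest here, at 87.6 CPM in the highest R6/2 library, the one that stood apart, and 102 CPM in the lowest WT library. Means were 68.1 ± 17.1, 61.5 ± 9.60, 134 ± 43.5 and 154 ± 13.5 CPM (SD, n = 3 each).

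By level the order was miR-132-3p, miR-132-5p, then the miR-212 arms, whose means over 12 libraries were 116 CPM for miR-212-3p and 104 CPM for miR-212-5p. In WT miR-212-3p had more reads than miR-212-5p in every library. In R6/2 the mean ratio of miR-212-3p to miR-212-5p was 0.789 in shTRAX and 1.02 in control libraries, as given by library further on. Reads of different sequences are not ligated and amplified with equal efficiency, so the order of levels is that of the libraries and not necessarily that of the tissue.

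**Figure D1:**
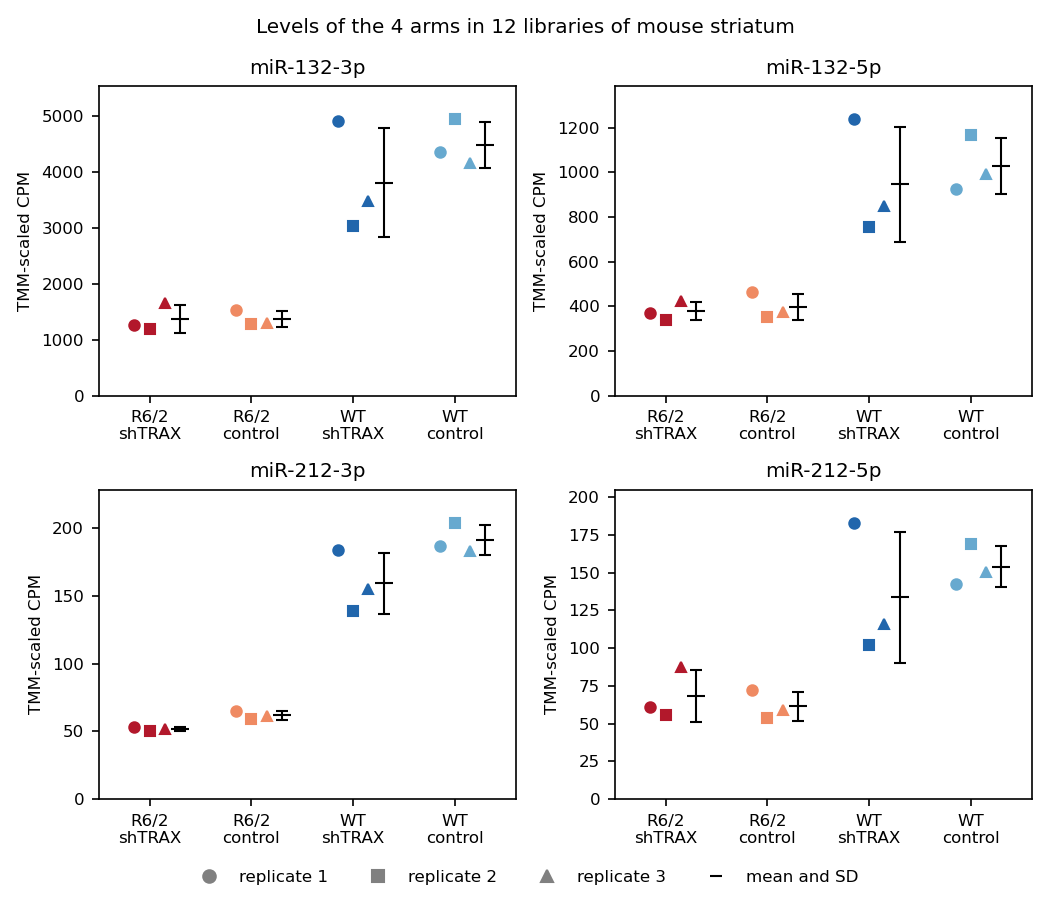
Level of each of the 4 members in every library, in CPM after TMM scaling on a linear axis from 0, with 1 panel per member. Points are libraries and bars are group means with SD (n = 3); the 6 R6/2 libraries lie below the 6 WT libraries in all 4 panels, and miR-212-5p shows the smallest gap, 87.6 against 102 CPM.

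Under control AAV the labels of the groups compared differ only in genotype, but the RNA extraction method is not given per sample. All 4 members fell in R6/2 there. They were among 23 of 689 tested miRNAs (3.34%) called lower by edgeR's quasi-likelihood test at an adjusted p under 0.05. miR-132-3p fell by 1.71 ± 0.19 on the log2 scale (SE), to 0.305 times its WT level, with an edgeR adjusted p of 0.000184. miR-212-3p fell by 1.63 ± 0.13, to 0.323 times, with an edgeR adjusted p of 2.04e-05, the second smallest of all tested miRNAs. These were the fourth and the sixth lowest log2 fold changes of the 689, so both 3p arms, with their shared seed, stood near the low end.

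The 5p arms fell somewhat less by estimate. miR-132-5p fell by 1.37 ± 0.19 on the log2 scale, to 0.386 times its WT level, with an edgeR adjusted p of 0.000909. For miR-212-5p the log2 fold change was -1.32 ± 0.24, a level 0.400 times that in WT, with an edgeR adjusted p of 0.00427. The 95% intervals of all 4 members overlapped, from -2.13 to -1.29 for miR-132-3p at the low end to -1.85 to -0.79 for miR-212-5p at the high end. The median log2 fold change was -1.50 over the members and 0.03 over all 689 tested miRNAs. Whether fewer neurons or less of each miRNA per cell lies behind a lower level cannot be told apart in bulk tissue.

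Under shTRAX AAV the 4 members were again lower in R6/2, among 40 of 689 (5.81%) called lower. The fitted log2 fold change was -1.48 ± 0.19 for miR-132-3p (edgeR adjusted p = 0.000787) and -1.62 ± 0.13 for miR-212-3p (edgeR adjusted p = 2.24e-05). For the 5p arms it was -1.33 ± 0.19 for miR-132-5p (edgeR adjusted p = 0.00207) and -0.97 ± 0.24 for miR-212-5p (edgeR adjusted p = 0.0263). The miR-212-5p call was the weakest, and it was lost without WT shTRAX replicate 1, at -0.70 with an edgeR adjusted p of 0.0549. Without the R6/2 shTRAX library that stood apart, the 4 values were -1.63, -1.62, -1.41 and -1.19 in the same order of members, all past the threshold in edgeR. When only the 6 shTRAX libraries were fitted, miR-212-3p alone stayed past the threshold, with an edgeR adjusted p of 0.0163, and the other three had edgeR adjusted p-values of 0.057, 0.0624 and 0.184. That fit called 2 miRNAs in all.

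R6/2 mice with shTRAX AAV were also set against WT mice with control AAV, to ask how far the locus lay from the WT level after TRAX knockdown. This comparison shares libraries with the others, so its values are given side by side with them and not as further evidence. All 4 members were lower, where 45 of 689 (6.53%) were called lower. The log2 fold changes were -1.71 ± 0.19 for miR-132-3p, -1.45 ± 0.20 for miR-132-5p, -1.89 ± 0.13 for miR-212-3p and -1.18 ± 0.24 for miR-212-5p, with edgeR adjusted p-values of 0.000245, 0.00107, 4.95e-06 and 0.0108 in that order. Without R6/2 shTRAX replicate 3 the values were -1.86, -1.52, -1.87 and -1.39 in the same order of members, all past the threshold in edgeR. All 3 R6/2 shTRAX libraries lay below all 3 WT control libraries for every member, as was so for 117 of 689 tested miRNAs (17%).

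**Figure D2:**
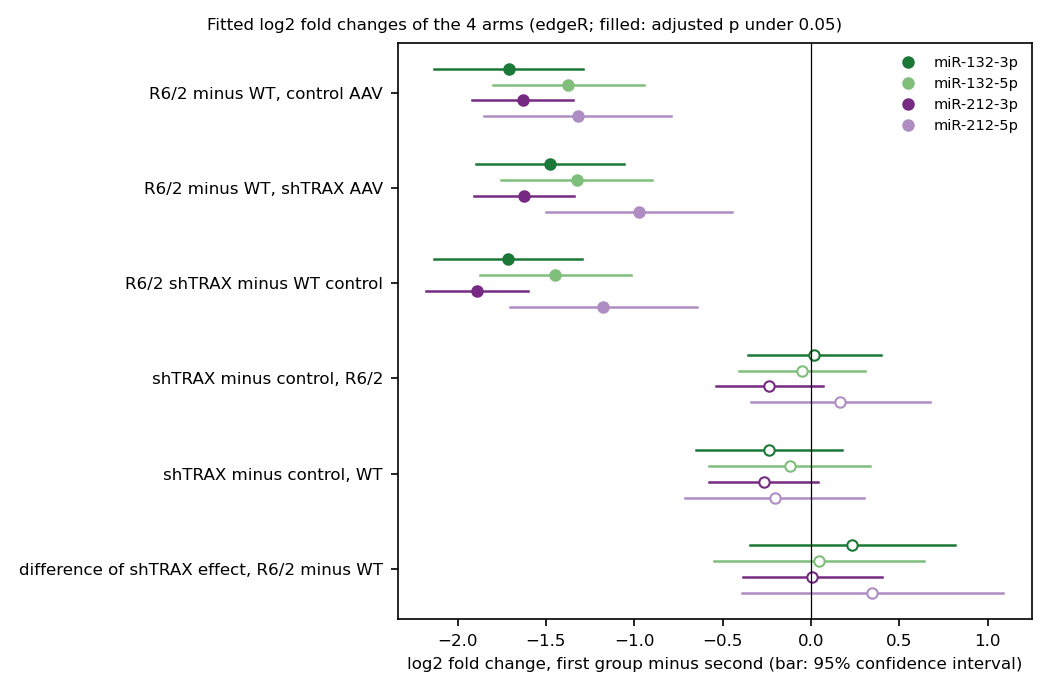
Log2 fold change of each member with its 95% interval in the genotype comparisons, the shTRAX comparisons and the difference of shTRAX effects, with a line at 0 and filled points for an adjusted p under 0.05. The genotype values lie between -1.89 and -0.97 with intervals below 0, and the shTRAX values lie between -0.27 and 0.17, and the differences between 0.01 and 0.35, with intervals that include 0.

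**Figure D3:**
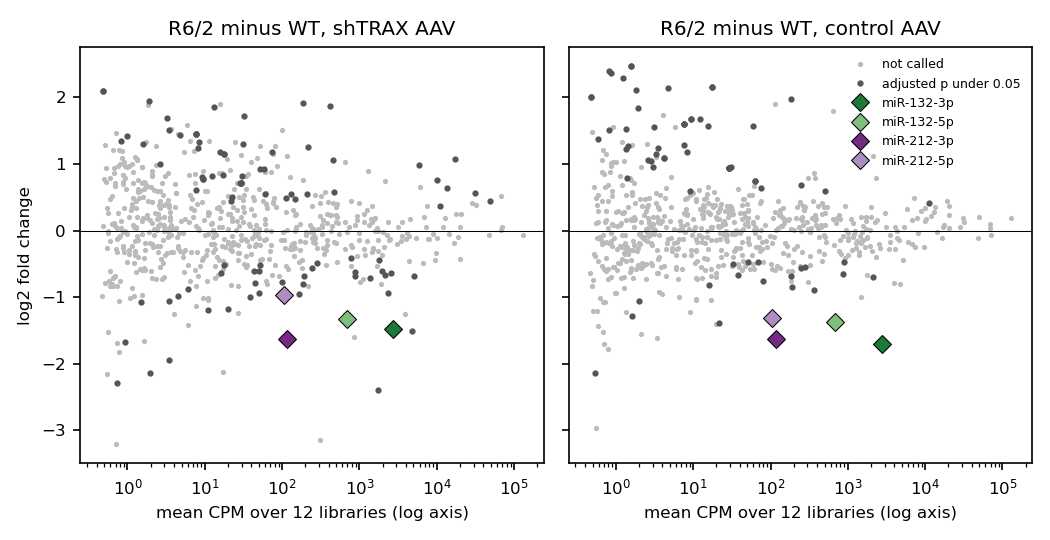
Log2 fold change of R6/2 over WT for all 689 tested miRNAs against mean CPM on a log axis, under shTRAX AAV and under control AAV, with called miRNAs dark and the 4 members as diamonds. The members sit between -1.62 and -0.97 under shTRAX AAV and between -1.71 and -1.32 under control AAV, and the medians of all miRNAs are 0.04 and 0.03.

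The shTRAX AAV did not move any member past the threshold in R6/2 striatum, where no miRNA of 651 was called by edgeR (0%). At an unadjusted p under 0.05 edgeR had 68 of 651 (10.4%). DESeq2 called 13. miR-132-3p differed by 0.02 ± 0.16 on the log2 scale, with a 95% interval of -0.36 to 0.40 and an edgeR adjusted p of 0.948. For miR-132-5p the difference was -0.05 ± 0.15, interval -0.41 to 0.31, with an edgeR adjusted p of 0.859. Both intervals include changes in either direction.

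The miR-212 arms pointed opposite ways in R6/2. miR-212-3p was 51.7 CPM in R6/2 shTRAX and 61.8 CPM in R6/2 control libraries, a log2 difference of -0.23 ± 0.13 with an interval of -0.54 to 0.07 and an edgeR adjusted p of 0.437. With offsets for GC content the value was -0.46, and -0.47 with the replicate block as well, with edgeR adjusted p-values of 0.474 and 0.502. Its libraries did not overlap between the AAVs, with shTRAX the lower, which was so for 110 of 651 tested miRNAs (16.9%). miR-212-5p differed by 0.17 ± 0.21, interval -0.34 to 0.67, with an edgeR adjusted p of 0.641. Without R6/2 shTRAX replicate 3 the R6/2 values were -0.13 for miR-132-3p, -0.12 for miR-132-5p, -0.22 for miR-212-3p and -0.04 for miR-212-5p, and the lowest of their edgeR adjusted p-values was 0.218.

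In WT striatum all 4 members had estimates below 0 with shTRAX, and none was called, where edgeR called 1 of 665 miRNAs (0.15%), against 50 (7.52%) at an unadjusted p under 0.05. The log2 differences were -0.24 ± 0.18 for miR-132-3p (interval -0.65 to 0.18, edgeR adjusted p = 0.791) and -0.27 ± 0.13 for miR-212-3p (interval -0.58 to 0.04, edgeR adjusted p = 0.641). They were -0.12 ± 0.20 for miR-132-5p (interval -0.57 to 0.33, edgeR adjusted p = 0.892) and -0.20 ± 0.22 for miR-212-5p (interval -0.71 to 0.30, edgeR adjusted p = 0.835). For the members other than miR-132-5p, the lack of a call rested on WT shTRAX replicate 1, the highest WT library for 2 of the members. Without it the log2 differences were -0.49, -0.41, -0.39 and -0.53 in the same order of members, with edgeR adjusted p-values of 0.0274, 0.0435, 0.0719 and 0.0351, and the number of miRNAs called was 57.

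The shTRAX effect was not shown to differ between the genotypes. The difference, R6/2 minus WT, was 0.23 ± 0.26 for miR-132-3p, 0.05 ± 0.27 for miR-132-5p, 0.01 ± 0.18 for miR-212-3p and 0.35 ± 0.34 for miR-212-5p on the log2 scale. The edgeR adjusted p-values were 0.601, 0.938, 0.987 and 0.571 in that order, and edgeR called 0 of 689 miRNAs (0%), with 61 (8.85%) under an unadjusted p of 0.05. DESeq2 called 2. The widest interval, that of miR-212-5p, ran from -0.39 to 1.09. Single libraries moved these values by more than 1.5 times. Without R6/2 shTRAX replicate 3 they were 0.06 for miR-132-3p, -0.05 for miR-132-5p, -0.00632 for miR-212-3p and 0.12 for miR-212-5p. Without WT shTRAX replicate 1 they were 0.41, 0.25, 0.08 and 0.60 in that order, and without WT shTRAX replicate 2 they were 0.06, -0.12, -0.11 and 0.15. The lowest edgeR adjusted p on leaving out any 1 library was 0.355.

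The authors' deposited table of shTRAX over control gave signed folds in R6/2 of -1.01 for miR-132-3p, -1.06 for miR-132-5p, -1.20 for miR-212-3p and 1.095 for miR-212-5p, where a fall is written as minus the inverse ratio. In WT the authors' deposited table gave -1.16, -1.07, -1.19 and -1.13 in the same order of members. The lowest adjusted p-value among these 8 in the authors' deposited table was 0.702, and none of the 4 members was in the authors' deposited table of 83 miRNAs for R6/2.

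The arms of each hairpin did not fall by the same amount. The 3p over 5p ratio of read counts, which needs no scaling between libraries, was lower in R6/2 than in WT striatum for both hairpins. For miR-132 it was 3.39, 3.49 and 3.92 in R6/2 shTRAX, 3.32, 3.62 and 3.43 in R6/2 control, 3.95, 4.02 and 4.10 in WT shTRAX, and 4.70, 4.23 and 4.18 in WT control libraries. The genotypes did not overlap, as was so for 11 of 215 hairpins with both arms tested (5.12%). Over the AAVs the mean was 3.53 ± 0.22 in R6/2 and 4.20 ± 0.26 in WT (SD, n = 6 each). The log2 difference was -0.25, with a two-sided exact permutation p of 0.005, the smallest that 400 rearrangements of genotype within AAV allow, and 0.01 after adjustment over 4 ratios.

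For miR-212 the ratio was 0.875, 0.901 and 0.589 in R6/2 shTRAX, 0.902, 1.11 and 1.04 in R6/2 control, 1.01, 1.37 and 1.34 in WT shTRAX, and 1.32, 1.21 and 1.22 in WT control libraries. The genotypes overlapped, because WT shTRAX replicate 1 lay among the R6/2 control libraries. The mean was 0.902 ± 0.178 in R6/2 and 1.24 ± 0.133 in WT (SD, n = 6 each), a log2 difference of -0.48 with an exact permutation p of 0.005 and an adjusted p of 0.01. In WT the 3p arm of miR-212 had more reads than the 5p arm in every library. In R6/2 it had more in 2 of 6, the control libraries at 1.11 and 1.04.

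Shifts of arm ratio between the genotypes were common in these libraries. Of 215 hairpins, 54 (25.1%) had an unadjusted exact permutation p under 0.05, 32 of them (14.9%) with a lower 3p over 5p ratio in R6/2, and the median log2 difference was -0.01. By size, miR-212 was 24th and miR-132 58th from the lowest. Adjusted over all 215 hairpins, the exact permutation p was 0.043 for each. Both were at the smallest possible exact permutation p, 0.005. Every hairpin at that p has this same adjusted p, the lowest reached here, so it is not particular to these hairpins. Without R6/2 shTRAX replicate 3 the log2 differences were -0.28 for miR-132 and -0.38 for miR-212, and with an offset for GC content they were -0.28 and -0.56.

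Between the hairpins, no genotype difference was detected in the ratio of the 3p arms, and the ratio of the 5p arms was lower in R6/2. The ratio of miR-132-3p to miR-212-3p was 23.6, 23.7 and 32.0 in R6/2 shTRAX, 23.6, 21.7 and 21.1 in R6/2 control, 26.6, 21.8 and 22.4 in WT shTRAX, and 23.3, 24.2 and 22.7 in WT control libraries. The genotype difference was 0.04 on the log2 scale, with an exact permutation p of 0.76, and -0.04 without R6/2 shTRAX replicate 3, the one library at 32.0. The ratio of miR-132-5p to miR-212-5p was 6.08, 6.12 and 4.82 in R6/2 shTRAX, 6.40, 6.62 and 6.36 in R6/2 control, 6.77, 7.41 and 7.33 in WT shTRAX, and 6.53, 6.92 and 6.59 in WT control libraries. Its mean was 6.07 ± 0.644 in R6/2 and 6.92 ± 0.373 in WT (SD, n = 6 each). The log2 difference was -0.20, with an exact permutation p of 0.015 and an adjusted p of 0.02, and -0.14 without R6/2 shTRAX replicate 3.

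**Figure D4:**
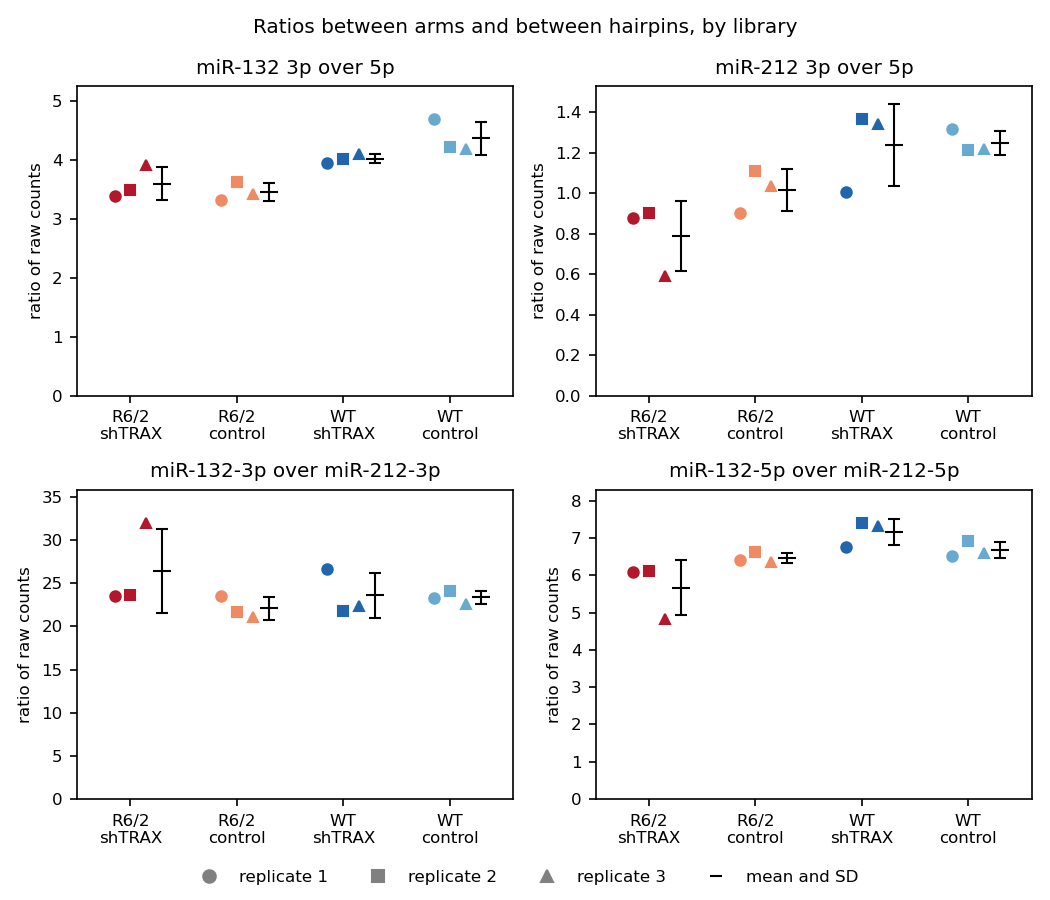
Read-count ratios within and between the hairpins in every library, on linear axes from 0, with points for libraries and bars for group means with SD (n = 3). The miR-132 3p over 5p ratio separates the genotypes (3.32 to 3.92 in R6/2, 3.95 to 4.70 in WT), and the ratio of the 3p arms overlaps between them (21.1 to 32.0 in R6/2, 21.8 to 26.6 in WT).

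Within a genotype, the effect of shTRAX on these ratios could not reach a p below 0.1 in an exact permutation of 3 against 3 libraries. The log2 effect on the miR-132 3p over 5p ratio was 0.06 in R6/2 and -0.12 in WT, and on the miR-212 ratio -0.38 in R6/2 and -0.03 in WT. On the ratio of the 5p arms it was -0.20 in R6/2 and 0.10 in WT. The adjusted exact permutation p-values of the 8 effects lay between 0.267 and 1. Without R6/2 shTRAX replicate 3 the R6/2 effects were -0.00773 on the miR-132 ratio, -0.19 on the miR-212 ratio and -0.08 on the ratio of the 5p arms.

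The members were next compared across the 6 libraries of each genotype, so that the genotype difference itself does not enter. Each set of 6 holds both AAVs and AAV was not a stratum, so a shift shared with AAV does enter r and its p. All levels of a library share its depth and scaling, so the pairs are read beside all 237016 pairs of tested miRNAs. In WT, 6 of 6 pairs of members had a positive Pearson's r with an unadjusted exact permutation p under 0.05, as had 5.38% of all pairs. After adjustment over the 12 pairs of both genotypes, 5 of the 6 passed by Pearson's r and 1 by Spearman's rho. The arms of miR-132 had r = 0.95 (exact permutation adjusted p = 0.0292) and rho = 0.89 (adjusted p = 0.08), with r = 0.88 once the 2 libraries farthest from the median were left out. The arms of miR-212 had r = 0.90 (exact permutation adjusted p = 0.0306) and rho = 0.71 (adjusted p = 0.181), but r = 0.20 without the 2 farthest libraries, so that relation rests on them. The closest pair was miR-132-5p with miR-212-5p, at r = 0.98 (exact permutation adjusted p = 0.0278) and rho = 1 (adjusted p = 0.0333), and r = 0.95 without the 2 farthest.

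In the other WT pairs, miR-132-3p with miR-212-3p had r = 0.96 (exact permutation adjusted p = 0.0278) and rho = 0.94 (adjusted p = 0.08), and r = 0.58 without the 2 farthest libraries. For miR-132-3p with miR-212-5p r was 0.98 (exact permutation adjusted p = 0.0278) and rho 0.89 (adjusted p = 0.08), and r = 0.85 without them. For miR-132-5p with miR-212-3p r was 0.85 (exact permutation adjusted p = 0.0542) and rho 0.71 (adjusted p = 0.181), and r = 0.90 without them. WT shTRAX replicate 2 was the lowest library for all 4 members, and the highest was WT control replicate 2 for the 3p arms and WT shTRAX replicate 1 for the 5p arms.

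In R6/2, where levels spanned less, 3 of 6 pairs had a positive r with an unadjusted exact permutation p under 0.05, as had 10.8% of all pairs. After adjustment 1 passed by Pearson's r and none by Spearman's rho. miR-132-3p with miR-212-5p had r = 0.94 (exact permutation adjusted p = 0.0306) and rho = 0.71 (adjusted p = 0.181), and r = 0.19 without the 2 farthest libraries, 1 of which is the library that stood apart, so it rests on them. The arms of miR-132 had r = 0.89 (exact permutation adjusted p = 0.05, not below the threshold) and rho = 0.89 (adjusted p = 0.08), and r = 0.78 without the 2 farthest. The arms of miR-212 had r = -0.07 (exact permutation adjusted p = 0.899) and rho = 0.09 (adjusted p = 0.919), and r = -0.76 without the 2 farthest. Those were chosen by miR-212-3p and were R6/2 control replicate 1 and R6/2 shTRAX replicate 2, so the library that stood apart was kept.

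For the remaining R6/2 pairs the values also moved when the 2 farthest libraries were left out. miR-132-3p with miR-212-3p had r = 0.20 (exact permutation adjusted p = 0.70) and rho = 0.43 (adjusted p = 0.458), and r = 0.92 without the 2 farthest libraries. miR-132-5p with miR-212-5p had r = 0.81 (exact permutation adjusted p = 0.0611) and rho = 0.83 (adjusted p = 0.117), and r = 0.76 without them. miR-132-5p with miR-212-3p had r = 0.48 (exact permutation adjusted p = 0.415) and rho = 0.60 (adjusted p = 0.29), and r = 0.61 without them. Whether any r differs between the genotypes was not tested. The highest library was 1.30 to 1.64 times the lowest for the 4 members in R6/2 and 1.47 to 1.80 times in WT.

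Over all 12 libraries, which share the genotype difference, the miRNAs outside the locus whose log2 CPM followed the mean of the 4 members most closely were miR-221-3p (r = 0.99), miR-378c (r = 0.96), miR-222-5p (r = 0.95), miR-344b-3p (r = 0.95) and miR-23b-3p (r = 0.94), given as a description. miR-221-3p averaged 1618 CPM in R6/2 and 2602 CPM in WT libraries, and miR-344b-3p 139 CPM in R6/2 and 231 CPM in WT libraries. The other three were also lower on average in R6/2, at 62.5 against 97.6 CPM for miR-378c, 12.0 against 20.0 CPM for miR-222-5p and 1865 against 2262 CPM for miR-23b-3p, R6/2 before WT. At the other end were miR-669c-5p (r = -0.96), miR-26b-5p (r = -0.95) and miR-467a-5p (r = -0.95). miR-669c-5p averaged 293 CPM in R6/2 and 76.1 CPM in WT libraries.

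A list of other miRNAs known to respond to neuronal activity held 17 outside the locus, all of them tested. Under control AAV edgeR called none of the 17, against 10.6% of all tested miRNAs; 13 had a log2 fold change below 0 and the median was -0.24. The 3 with the smallest p were miR-138-1-3p at -0.57 ± 0.18 (edgeR adjusted p = 0.0658), miR-138-2-3p at -0.61 ± 0.22 (edgeR adjusted p = 0.102) and miR-329-3p at -0.39 ± 0.16 (edgeR adjusted p = 0.152). The miR-138 arms come from hairpins with a neuronal mature miRNA, and miR-329-3p from the Dlk1-Dio3 cluster. This count rested on the library that stood apart, although that library is in neither group compared: without R6/2 shTRAX replicate 3 edgeR called 6 of the 17 lower, these 3 among them, with adjusted p-values of 0.000633, 0.00188 and 0.0193. In that fit edgeR called 210 of 700 tested miRNAs (30%), 90 of them lower (12.9%). When only the 6 control libraries were fitted, edgeR called 7 of the 17 lower and 1 higher, among 232 of 660 tested miRNAs (35.2%), 103 of them lower (15.6%).

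Under shTRAX AAV edgeR called 1 of the 17 higher and 1 lower, against 13.8% of all tested miRNAs, with a median of -0.14. They were miR-134-5p, at 0.55 ± 0.16 (edgeR adjusted p = 0.0458), and miR-381-3p, at -0.64 ± 0.13 (edgeR adjusted p = 0.0125), named after their values were seen. The miR-134-5p call was lost on leaving out any control library of either genotype or any WT shTRAX library, with edgeR adjusted p-values up to 0.121, and its log2 value was 0.33 without R6/2 shTRAX replicate 3. None of the 17 was called higher with DESeq2 size factors, library totals, no filter, limma, the replicate block, GC offsets or the shTRAX libraries alone. The DESeq2 test and summed precursor rows each had 1 of the 17 called higher. The shTRAX comparisons within R6/2 and within WT had 0 of the 17 called in edgeR, beside 0% and 0.15% of all tested miRNAs.

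**Figure D5:**
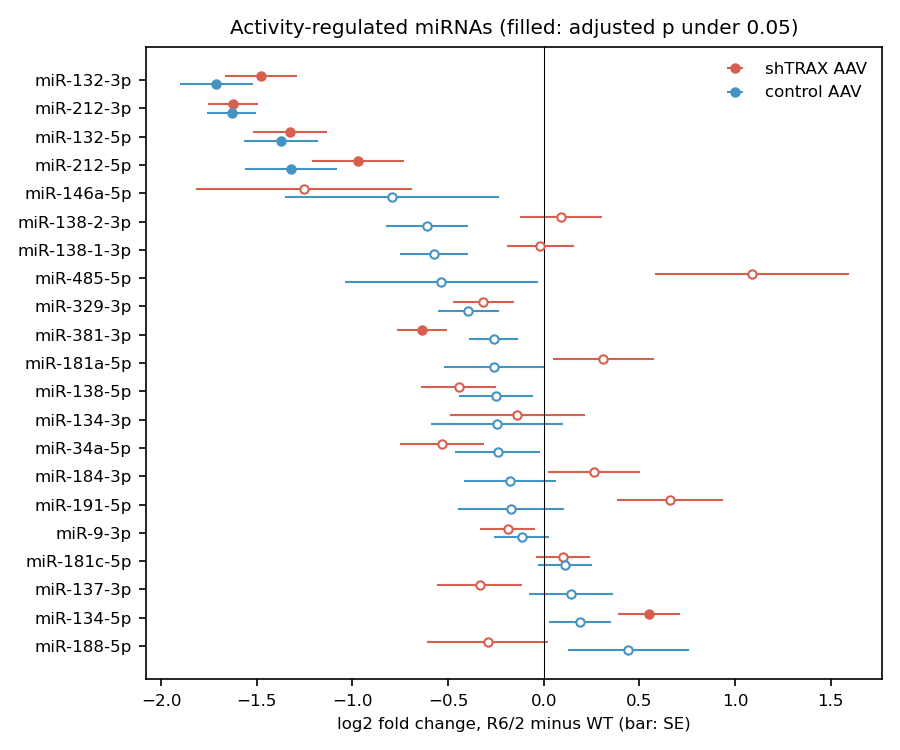
Log2 fold change of R6/2 over WT with its SE for the 21 listed activity-regulated miRNAs under shTRAX AAV and control AAV, on a linear axis with a line at 0. The 4 members of the locus lie between -1.71 and -0.97, and the other 17 have medians of -0.14 under shTRAX AAV and -0.24 under control AAV.

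Marker lists of cell types moved unevenly with genotype, and their part in the values of the locus was not tested. None of 22 neuron-enriched miRNAs was called under control AAV, beside 10.6% of all tested miRNAs called either way. Their median log2 fold change was -0.08 there, with 14 of 22 below 0. Their summed level was 246591 to 312817 CPM in R6/2 and 243675 to 311440 CPM in WT libraries. Most of that sum was miR-9-5p and miR-128-3p, whose means over 12 libraries were 128617 and 70298 CPM. Under shTRAX AAV 2 of the 22 were called higher and 3 lower, beside 13.8% of all tested miRNAs called either way and 5.81% called lower. There 16 of 22 had a log2 fold change below 0, with a median of -0.13. Of 11 tested microglia and inflammation markers, 10 had a log2 fold change below 0 under each AAV, the direction of the locus. Their medians were -0.65 under control AAV and -0.68 under shTRAX AAV. Called lower were 1 of the 11 under control AAV, beside 3.34% of all tested miRNAs, and 3 under shTRAX AAV, beside 5.81%. Their summed level was 21001 to 40161 CPM in R6/2 and 31733 to 48438 CPM in WT libraries. The most abundant of them, miR-29b-3p, is also on the astrocyte list and averaged 18878 CPM over 12 libraries. Its log2 fold change was 0.44 under control AAV and -0.10 under shTRAX AAV. Choroid plexus and ependyma markers summed to 2230 to 9195 CPM in R6/2 and 2228 to 6021 CPM in WT libraries. Under control AAV 1 of 13 was called higher, beside 10.6% of all tested miRNAs called either way. All 13 had a log2 fold change above 0 there, with a median of 0.56. Under shTRAX AAV 9 were above 0 and 4 below, with a median of 0.42. So the summed level of the neuron-enriched list, carried mostly by miR-9-5p and miR-128-3p, overlapped between the genotypes. The lowest sums of the microglia and inflammation list, miR-29b-3p included, were those of R6/2 shTRAX libraries, at 21001 to 29367 CPM.

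Of the remaining lists under control AAV, 1 of 9 astrocyte markers was called higher, and none was called of 7 oligodendrocyte, 7 blood cell, 11 vessel and 3 hindbrain and spinal cord (Hox) markers. Under shTRAX AAV 1 of the 11 vessel markers was called higher, and none of the astrocyte, oligodendrocyte, blood cell, choroid plexus or Hox markers. Of all tested miRNAs, 10.6% were called under control AAV and 13.8% under shTRAX AAV. Lists this short cannot be told apart from those shares. Vessel markers had a log2 fold change above 0 in 10 of 11 under control AAV (median 0.36) and in 7 of 11 under shTRAX AAV (median 0.05). Astrocyte markers were above 0 in 7 of 9 (median 0.31) and 5 of 9 (median 0.00) in the same order. Oligodendrocyte markers were below 0 in 5 of 7 under each AAV. No listed marker was at 0 in every library of a group apart from 1 Hox marker in WT control libraries.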

How the data were processed

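Small RNA of 12 striatum samples was measured as read counts. Per the file headers, the authors deposited raw counts and RPM (reads scaled to the column total) for each pair of mature miRNA and precursor. RPM was checked to be within 0.118 of the scaled count. Score columns (signed folds) and p-value columns deposited by the authors were quoted as theirs and not tested. The submitters' processing notes name bcl2fastq 2.20, Trimmomatic and the build GRCm38. Per the labels' protocols the library kit (QIAseq) adds molecular identifiers and RNA came from TRIzol or a column kit, unspecified per sample. No source used here gives the aligner, the counter, how the identifiers were used or which test the authors ran.

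For 81 of 1915 mature names with several precursor rows, only the row of highest mean count was used. The test was edgeR's quasi-likelihood test (edgeR 4.0.16, R 4.3.3) with TMM scaling, a filterByExpr minimum count of 10 and a threshold of 0.05 on p-values adjusted by Benjamini-Hochberg over all tested miRNAs. Genotype comparisons and the difference of shTRAX effects were fitted over 12 libraries and shTRAX effects over 6. Ratios were tested by exact two-sided permutation of genotype within AAV, and correlations by exact permutation of pairings. Alternatives used DESeq2 1.42.0, limma 3.58.1 on log2(RPM + 1), other scalings, no filter, summed precursor rows, GC offsets, the replicate number as a block, fits on fewer or more libraries, and the omission of each library in turn. For the ratios and correlations, the GC offsets and the test of the difference of shTRAX effects, with and without 1 library, and the count over all pairs of miRNAs, were added after the data were seen. Procedures were tested on simulated counts. Members and lists were chosen with earlier results of these data known. The lists, written from general knowledge, are activity-regulated, neuron-enriched, oligodendrocyte, astrocyte, microglia and inflammation, blood cell, vessel, choroid plexus and ependyma, and Hox miRNAs; they share some miRNAs. Outside the locus, the text names the 5 miRNAs with the highest and the 3 with the lowest r with the locus, and the 3 listed activity-regulated miRNAs with the smallest p under control AAV. Sequences come from RefSeq, where 1623 of the 1915 names matched.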

Additional observations from a re-analysis of the deposited data

Results flagged for a closer look

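By estimate, the effect of shTRAX on the ratio of miR-132-5p to miR-212-5p had opposite signs in the genotypes. It was -0.20 on the log2 scale in R6/2 and 0.10 in WT, a difference of -0.30 (R6/2 minus WT). An exact two-sided permutation of the AAV labels within genotype, added after the data were seen, gave p = 0.01, or 0.04 after adjustment over 4 ratios. Its null is no AAV effect in either genotype, so an effect in a single genotype can also lower this p. It therefore does not show that the effects differ. All 3 R6/2 shTRAX libraries, at 4.82 to 6.12, lay below the 3 R6/2 control libraries at 6.36 to 6.62, and the lowest was the library that stood apart. In WT the shTRAX libraries were at 6.77 to 7.41 and the control libraries at 6.53 to 6.92. For the other 3 ratios the exact permutation p adjusted over the 4 ratios was 0.17 to 0.28. Without R6/2 shTRAX replicate 3 the difference was -0.18, with an exact permutation p of 0.02 that was 0.08 after adjustment over the 4 ratios, so the call rests on that library.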

How the results depend on the processing

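The 4 members kept their direction and their call in all 88 checks of the genotype comparison under control AAV and all 88 of R6/2 shTRAX against WT control. Under shTRAX AAV, fitting only the 2 groups compared gave -1.50 for miR-132-3p, -1.34 for miR-132-5p and -0.99 for miR-212-5p, no longer past the threshold; fewer libraries then estimate the spread. Leaving out 1 library gave miR-212-5p -1.19 to -0.70 there. For shTRAX in WT, leaving out 1 library gave -0.49 to -0.10 for miR-132-3p, -0.39 to 0.0139 for miR-132-5p, -0.41 to -0.18 for miR-212-3p and -0.53 to -0.0475 for miR-212-5p. For shTRAX in R6/2, uncalled values near 0 changed sign. miR-132-3p was -0.0334 by library totals, -0.0307 with no filter, -0.0232 in limma, -0.0858 with GC offsets, -0.0881 with the replicate block and GC offsets, -0.0039 with summed rows and -0.00246 with all 12 libraries. miR-132-5p was 0.00133 with GC offsets. Leaving out 1 library gave -0.13 to 0.0996 for miR-132-3p, -0.12 to 0.0502 for miR-132-5p and -0.0435 to 0.28 for miR-212-5p. For the difference of shTRAX effects, miR-132-5p was -0.00495 by library totals and -0.0153 with no filter. miR-212-3p was -0.00815 with DESeq2 size factors, -0.0350 by library totals, -0.0509 with no filter, -0.00843 in the DESeq2 test, -0.21 with GC offsets, -0.21 with the replicate block and GC offsets and -0.00917 with summed rows. Leaving out 1 library gave 0.0613 to 0.41 for miR-132-3p, -0.12 to 0.25 for miR-132-5p, -0.11 to 0.0811 for miR-212-3p and 0.12 to 0.60 for miR-212-5p. The ratio of the 3p arms ranged over -0.0379 to 0.0802 without 1 library, and r of miR-132-3p with miR-212-3p in R6/2 was -0.00377 by library totals. The number of miRNAs called moved more than any member's call. Under control AAV it was 73, but 46 with no filter, 232 with only the 2 groups and 40 to 210 without 1 library. Under shTRAX AAV it was 95, but 59 with the replicate block, 2 with only the 2 groups and 38 to 141 without 1 library. For R6/2 shTRAX against WT control it was 117, but 73 with no filter, 48 with only the 2 groups and 34 to 171 without 1 library. For shTRAX in R6/2 it was 0, but 13 in DESeq2, 1 with all 12 libraries and 0 to 4 without 1 library. For shTRAX in WT it was 1, but 4 with no filter, 4 in DESeq2, 0 with the replicate block and GC offsets, 0 with all 12 libraries and 0 to 57 without 1 library. Deviations of libraries with the same replicate number had r of -0.317 to 0.279. The labels do not say whether that number marks a pairing, and values from so few libraries cannot settle it. The replicate block ended no call of a member. The cause of these changes was not tested.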
